A study of Drosophila melanogaster with 6 samples.

Results

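The 7 caspase genes of Drosophila melanogaster and the apoptosome gene Dark were followed in embryos that differ at shaggy. This gene (sgg) encodes the glycogen synthase kinase 3 of the fly. The genes were taken by name, as Dronc, Dark, Drice, Dcp-1, Dredd, Decay, Damm and Strica, and all 8 were found among the 10526 genes tested of 17493 counted. The rule uses gene names and no expression value, though it was written when earlier results of these data were known. Both lines carried tags at sgg, an N-terminal DsRed and an internal StrepII-Flag-StrepII. The control line, sggisoD-DS-SFS, had no further change, while the mutant line, sggisoD-CI-DS-SFS, was also altered at 2 consensus sites for cutting by caspases. The mutant embryos came from a homozygous stock. RNA of embryos 10 to 15 hours old was sequenced from 3 collections per line, and the comparison asks whether transcript levels differ when this form of the kinase lacks those sites. Each line is a single engineered stock with no untagged line beside it, so the site changes cannot be told apart from other differences between the stocks.

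Caspases are cysteine proteases made as inactive precursors that cut their substrates after aspartate residues. In the fly, the initiator Dronc is activated on a scaffold built from Dark, the homologue of mammalian Apaf-1, and then cuts the effectors Drice and Dcp-1, which take the cell apart. Inhibitor-of-apoptosis proteins such as Diap1 hold these enzymes in check, and Reaper, Hid, Grim and Sickle release them. Caspases are controlled mainly at the protein level, so a transcript level is not a measure of caspase activity. Caspases also cut proteins in cells that live on, and Shaggy is a known substrate of this kind in the fly.

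The libraries held 12646077 to 19454630 counted reads, with at least 1 read for 12870 to 13407 genes. The 8 genes together took 2625 to 4178 reads of a library, which was 0.0196% to 0.0216% of its counts. Total sgg counts ran from 285 to 314 CPM (read counts scaled to a common library total) in the control line and from 303 to 308 CPM in the mutant line (edgeR adjusted p = 0.871), and they check neither the tags nor the site changes. As a check on the tissue, defining genes of embryonic cell types were detected, among them elav of neurons, repo of glia, Mhc of muscle and srp of blood cells. Of 7 eggshell and yolk protein genes of the adult female, 3 passed the filter on low counts, and the summed level of the list was 4.95 to 8.25 CPM in control and 6.52 to 7.24 CPM in mutant libraries.

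None of the 8 genes was called at the 0.05 level after adjustment by edgeR (quasi-likelihood test), against a background of 22.3% of all tested genes, 13.7% higher and 8.67% lower in the mutant line. Without normalisation beyond library size, calls over all genes were 1268 higher and 1272 lower in place of 1437 and 913, and still none was among the 8. At an adjusted p under 0.1 Decay alone was called, beside 30.8% of all tested genes. An unadjusted p under 0.05 was found for 2 of the 8, Decay and Dark, where the background was 36.1%. The authors' deposited table, made with limma-voom, likewise has 0 of the 8 at an adjusted p under 0.05 (background 22.6%) and 2 at an unadjusted p under 0.05 (background 36.3%). The DESeq2 Wald test and limma-voom with default settings also gave 0 adjusted calls, and each gave 1 at an unadjusted p under 0.05. Estimates were above 0 for 4 genes and below 0 for 4, with a median log2 fold change of -0.0055 beside -0.01 over all tested genes. The 3 values of each line were fully apart for 3 of the 8 genes, Decay and Strica higher and Dark lower in the mutant line, where 41.9% of all tested genes were apart, 21.9% higher and 20% lower. The p-values measure the spread among 3 collections per line, and the 95% intervals given below are not adjusted for the number of genes.

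**Figure D1:**
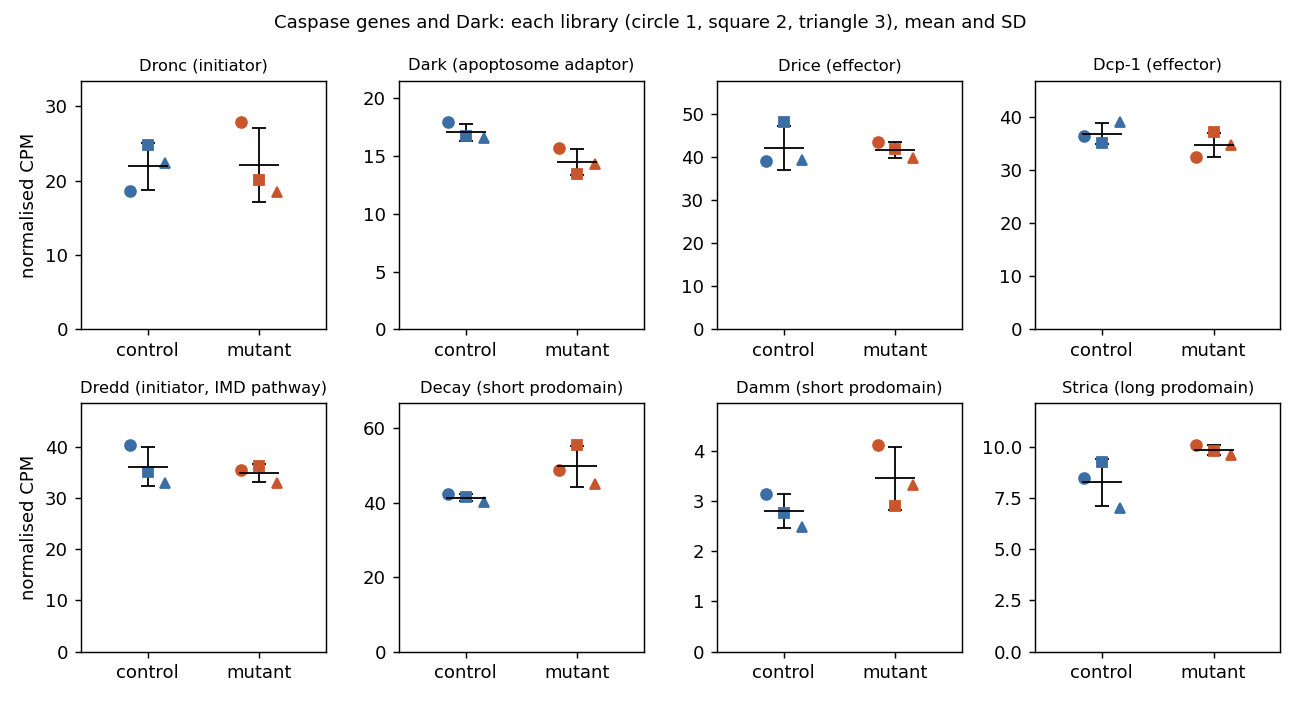
Normalised CPM (linear axis from 0) of the 8 genes in every library, with controls in blue, mutants in orange, circles, squares and triangles for collections 1, 2 and 3 of each line, and bars for the mean and SD (n = 3). The lines lie apart for Decay, Strica and Dark and overlap for the other genes.

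The apoptosome was examined first. Dronc (FBgn0026404, 3L, 9968479 to 9971002, forward strand) encodes the initiator caspase with a caspase recruitment domain, and the annotation gives it 2 exons and no exon shared with another gene. Control collections 1, 2 and 3 gave 236, 486 and 413 Dronc reads, and mutant collections 1, 2 and 3 gave 419, 305 and 284. In normalised terms this was 18.6, 24.8 and 22.3 CPM in the control line and 27.8, 20.1 and 18.5 CPM in the mutant line. Mutant collection 1 was the highest of the 6 and mutant collection 3 the lowest, so the mutant values enclosed all the controls. The means were 21.9 ± 3.15 CPM in control and 22.1 ± 4.98 CPM in mutant (SD, n = 3 each), and the log2 fold change was 0.0089 (standard error 0.17, edgeR adjusted p = 0.978). The interval of the fold ran from 0.773 to 1.31. Without mutant collection 1 the estimate was -0.20, and over 14 alternatives the adjusted p ran from 0.366 to 0.998. The spread between Dronc collections was 14.4% of the mean in control and 22.5% in mutant, where counting error alone would give 5.32% and 5.52%.

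Dark (FBgn0263864, 2R, 17020027 to 17026703, forward strand) encodes the scaffold on which Dronc is activated. It had 228, 328 and 306 reads in the control libraries and 237, 205 and 220 in the mutant libraries, numbered 1 to 3. The normalised values were 17.9, 16.7 and 16.5 CPM in control and 15.7, 13.5 and 14.3 CPM in mutant. All 3 mutant values lay under all 3 control values, with a gap of less than 1 CPM between the nearest. Dark was at 17.1 ± 0.75 CPM in control and 14.5 ± 1.13 CPM in mutant (SD, n = 3 each), or -0.23 on the log2 scale (standard error 0.10). By edgeR the unadjusted p was 0.0497 and the adjusted p 0.138, so the difference did not pass the threshold. The interval of the fold ran from 0.726 to 0.9997 and only just left out 1. It held 1 with DESeq2, limma-voom, the filter at 1 CPM and the replicate number as a block. The same was so in each fit that left out 1 library, except that without mutant collection 1. Over 14 alternatives the adjusted p ran from 0.0880 to 0.299 and the estimate from -0.31 to -0.18. In the authors' deposited table Dark is 0.23 higher in control than in mutant on the log2 scale (adjusted p = 0.136). The antisense gene asRNA:CR44390 overlaps 56.9% of the exon sequence of Dark and had 0 to 3 reads in a library. Whether the counting used the strand of the reads is not given in the sources used here, so reads of the pair may have been shared or set aside.

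Per kilobase of exon, Dark was below Dronc in all 6 libraries. The ratio of Dark to Dronc per kilobase was 0.399, 0.279 and 0.306 in the control libraries and 0.233, 0.277 and 0.320 in the mutant libraries. The values of the lines overlapped. With only the exon length free of other genes, a choice made after seeing the data, the lines again overlapped. This had to be so, as the choice changes the ratio by the same factor in every library. The ratio was then 0.646 to 0.925 in control and 0.542 to 0.742 in mutant. All reads of Dark were kept, so this second ratio is too high if reads of the shared exon were counted. These are RNA ratios from whole embryos, and in such bulk samples fewer cells that express a gene and less RNA per cell cannot be told apart.

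The effectors that Dronc cuts came next. Drice (FBgn0019972, 3R, 29799658 to 29801584, forward strand) encodes the main effector caspase, and the annotation gives it a single exon. It had 499, 942 and 726 reads in the control libraries and 655, 635 and 610 in the mutant libraries. After scaling these were 39.2, 48.1 and 39.2 CPM in control and 43.5, 41.8 and 39.8 CPM in mutant. The 3 mutant values lay between the lowest and the highest control values, and control collection 2 was the highest library. The means were 42.2 ± 5.11 and 41.7 ± 1.86 CPM (SD, n = 3 each), with a log2 fold change of -0.020 (standard error 0.096, edgeR adjusted p = 0.910). The interval of the fold, 0.848 to 1.15, leaves room for small differences in either direction. Without control collection 2 the estimate was 0.071, and over 14 alternatives the adjusted p ran from 0.620 to 0.996.

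Dcp-1 (FBgn0010501, 2R, 23551313 to 23553547, forward strand) encodes the effector closest to Drice, which also acts in starvation-induced death and autophagy of the ovary. It had 463, 687 and 720 reads in the control libraries and 489, 563 and 531 in the mutant libraries. Scaled to CPM, the values were 36.4, 35.1 and 38.9 CPM in control and 32.5, 37.1 and 34.6 CPM in mutant. The groups overlapped, since mutant collection 2 was above 2 of the 3 controls. The means were 36.8 ± 1.95 and 34.7 ± 2.30 CPM (SD, n = 3 each), the log2 fold change was -0.08 (standard error 0.08, edgeR adjusted p = 0.495) and the interval of the fold was 0.830 to 1.07. With 1 library left out the estimate ran from -0.14 (without control collection 2 or mutant collection 2) to -0.047 (without control collection 3), and over 14 alternatives the adjusted p ran from 0.285 to 0.754. The zinc finger gene pita overlaps 13.7% of the exon sequence of Dcp-1 on the opposite strand and had 431 to 875 reads in a library.

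Dredd (FBgn0020381, X, 633622 to 635545, reverse strand) encodes the death-effector-domain caspase that acts with Imd and Fadd in the immune deficiency (IMD) pathway, where it cuts the transcription factor Relish. It had 514, 687 and 609 reads in the control libraries and 534, 550 and 504 in the mutant libraries. The normalised values were 40.4, 35.1 and 32.9 CPM in control and 35.4, 36.2 and 32.9 CPM in mutant. Control collection 1 was the highest library, and the other 5 spanned a narrow range that both lines shared. The means were 36.1 ± 3.86 and 34.8 ± 1.75 CPM (SD, n = 3 each), with a log2 fold change of -0.05 (standard error 0.09, edgeR adjusted p = 0.744) and an interval of the fold from 0.834 to 1.12. Without control collection 1 the estimate was 0.032, and over 14 alternatives the adjusted p ran from 0.430 to 0.911.

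Decay (FBgn0028381, 3R, 16499058 to 16501050, reverse strand) encodes a caspase with a short prodomain and effector-like sequence, and its exons are shared with no other annotated gene. It came closest to the threshold of the 8 genes. Decay had 537, 813 and 746 reads in the control libraries and 734, 844 and 689 in the mutant libraries. The normalised levels were 42.2, 41.5 and 40.3 CPM in control and 48.7, 55.5 and 44.9 CPM in mutant. The controls lay close together and the mutants ranged widely above them, so the groups did not overlap. The means were 41.3 ± 0.96 CPM in control and 49.7 ± 5.39 CPM in mutant (SD, n = 3 each). The log2 fold change was 0.27 (standard error 0.09), the interval of the fold was 1.05 to 1.38, and by edgeR the unadjusted p was 0.0151 and the adjusted p 0.0612. In the authors' deposited table the log2 difference of Decay, taken as control minus mutant, is -0.26 (adjusted p = 0.0654). Over 14 alternatives the edgeR, DESeq2 or limma adjusted p ran from 0.0566 to 0.171, and the estimate stayed above 0 from 0.18 to 0.32. The lowest estimate was the fit without mutant collection 2, the highest Decay library. The control spread of 2.31% was smaller than the 3.83% that counting error alone would give, while the mutant spread was 10.8%.

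**Figure D2:**
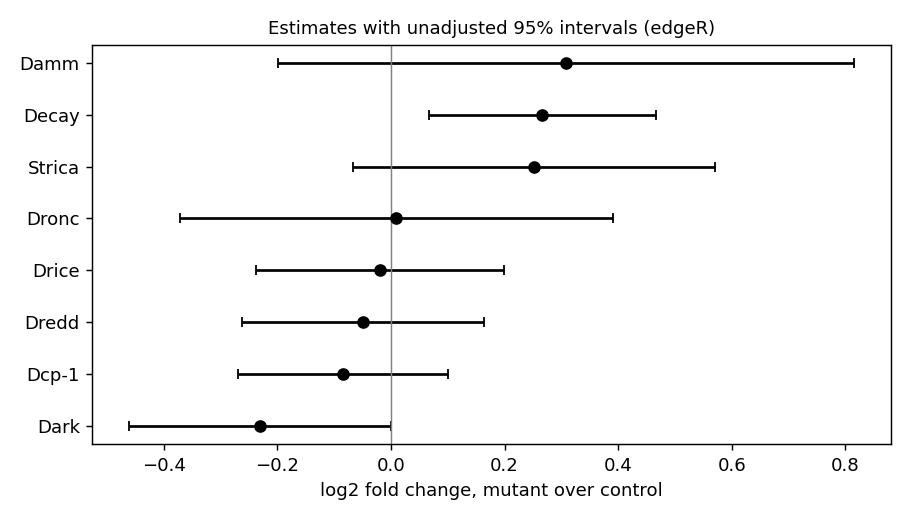
Log2 fold change of the mutant over the control line for the 8 genes, with 95% intervals from edgeR that are not adjusted for multiple tests. The intervals of 6 genes hold 0, and those of Decay (above) and Dark (below) do not. That of Dark only just leaves out 0, with an upper end of -0.00044.

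Strica (FBgn0033051, 2R, 6020311 to 6023144, reverse strand) encodes a caspase with a long prodomain rich in serine and threonine. It had 108, 181 and 130 reads in the control libraries and 152, 149 and 147 in the mutant libraries. The normalised values were 8.49, 9.24 and 7.03 CPM in control and 10.1, 9.81 and 9.58 CPM in mutant. All 3 mutant values were above all 3 control values, and the mutants were close together where the controls were spread. The means were 8.25 ± 1.13 and 9.83 ± 0.25 CPM (SD, n = 3 each), or 0.25 on the log2 scale (edgeR adjusted p = 0.232, standard error 0.14). Without control collection 3, the lowest library, the estimate was 0.14, and the adjusted p over 14 alternatives ran from 0.193 to 0.516. The gene Pngl overlaps 14.2% of the exon sequence of Strica on the opposite strand and had 532 to 845 reads in a library, more than Strica itself.

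Damm (FBgn0033659, 2R, 11864112 to 11866383, reverse strand) encodes a further short-prodomain caspase and was the rarest of the 8 transcripts. It had 40, 54 and 46 reads in the control libraries and 62, 44 and 51 in the mutant libraries. After scaling they were 3.14, 2.76 and 2.49 CPM in control and 4.12, 2.90 and 3.32 CPM in mutant. The groups overlapped, with mutant collection 2 under control collection 1. The means were 2.80 ± 0.33 and 3.45 ± 0.62 CPM (SD, n = 3 each). The log2 fold change of 0.31 was the largest estimate of the 8 and also the least precise, with a standard error of 0.22 and an edgeR adjusted p of 0.360. The interval of the fold ran from 0.871 to 1.76, which is the widest of the 8. Counting error alone would give a spread of 14.7% in control and 13.9% in mutant, close to the 11.8% and 18.0% observed. Without mutant collection 1, the highest library, the estimate was 0.15, and the adjusted p over 14 alternatives ran from 0.274 to 0.720.

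The precision of the 8 comparisons was like that of the table as a whole. The half-width of the 95% interval had a median of 0.22 on the log2 scale over the 8 genes, from 0.18 for Dcp-1 to 0.51 for Damm, beside 0.25 over all tested genes. Estimated differences were also of similar size, with a median of 0.16 over the 8 genes and 0.19 over all tested genes.

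Levels were compared between genes as CPM per kilobase of merged exon, the summed length of all annotated exons of a gene. Averaged over the 6 libraries, Decay was highest at 41.0 CPM per kilobase, followed by Drice at 21.8, Dredd at 20.8 and Dcp-1 at 20.4. Dronc was at 10.9, Strica at 3.32, Dark at 3.23 and Damm at 1.54 CPM per kilobase. Decay was above Drice in 6 of 6 libraries, with ranges that did not meet, and the same held for Dcp-1 above Dronc, Dronc above Strica and Dark above Damm. Drice, Dredd and Dcp-1 could not be ordered, as their ranges overlapped and Drice was above Dredd in 5 of 6 libraries and Dredd above Dcp-1 in 4 of 6. Strica was above Dark in 3 of 6 libraries. On the same scale, Drice was present at 2.02 ± 0.19 times Dronc in the control line and 2.02 ± 0.34 times in the mutant line (SD, n = 3 each).

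The lengths behind these levels matter where genes overlap. A shorter length, only exon sequence free of any other annotated gene, was also used, a choice made after the data were seen. All reads of a gene were kept, so this length gives too high a level where reads of the shared exon were counted. The libraries were directional, and the largest overlaps, of Dark and Damm, were with genes on the opposite strand. Whether shared reads were counted is not given in the sources used here. With this length Dark came to 7.51 CPM per kilobase and moved above Strica at 3.87. Dcp-1 came to 23.7 and moved above Drice, while Decay, Dronc and Damm kept ranks 1, 5 and 8. The length chosen has no effect on the fold change of a gene between the lines.

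**Figure D3:**
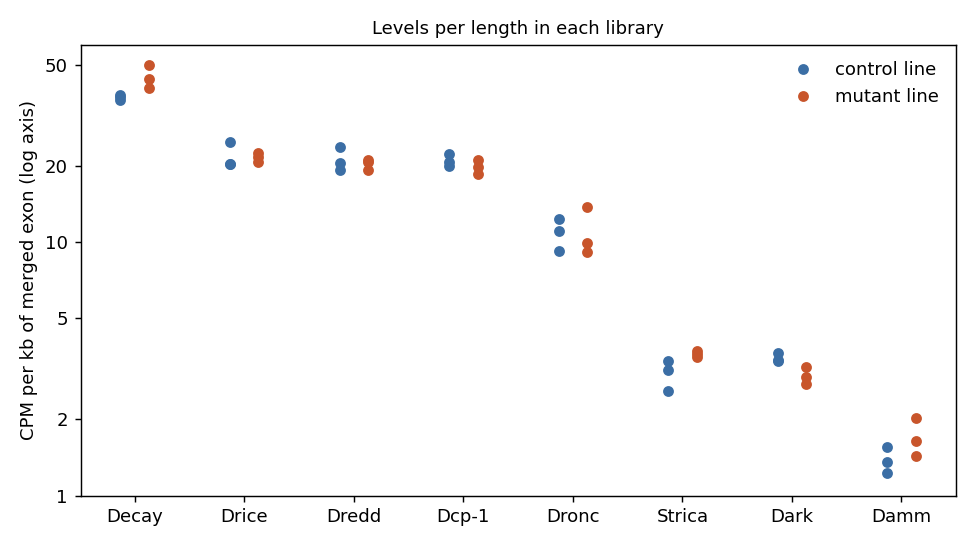
CPM per kilobase of merged exon (log axis) in each of the 3 control (blue) and 3 mutant (orange) libraries, ordered by the mean of all 6. Decay stands above the rest, Drice, Dredd and Dcp-1 share a range, and Damm is lowest.

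The make-up of the caspase transcripts was then compared between lines. The summed level of the 7 caspase genes was 117 ± 3.45 CPM per kilobase in control and 123 ± 7.58 in mutant (SD, n = 3 each), with overlapping values. Decay made up 32.6%, 31.1% and 32.1% of this sum in the control libraries and 35.0%, 38.7% and 35.3% in the mutant libraries. The share of Decay was thus higher in every mutant library than in any control library. Dredd made up 20.3%, 17.1% and 17.0% in control and 16.6%, 16.4% and 16.8% in mutant, just below the controls. The shares add up to the whole, so a larger share of Decay lowers the sum of the others, and for the remaining 5 genes the lines overlapped. With exon length free of other genes Decay made up 29.8% to 31.1% in control and 33.6% to 37.2% in mutant. The lines were then apart for Decay and Dredd alone. These are the same reads over other lengths and not separate support. Such shares have no background over all tested genes. In CPM, where 41.9% of all tested genes were apart, the lines were apart for Decay and overlapped for Dredd.

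Regulators of the caspases were read from the same fit, from lists chosen with earlier results of these data known. Of the 8 genes for inhibitors of apoptosis and their antagonists, 2 (25%) were lower in the mutant line and none was higher. Calls in this list and those that follow stand beside 22.3% of all tested genes, 8.67% lower and 13.7% higher. The antagonist skl (Sickle) was at 36.2 ± 3.78 CPM in control and fell to 23.9 ± 2.73 CPM in mutant (SD, n = 3 each), which is -0.59 on the log2 scale (edgeR adjusted p = 0.00746). The antagonist grim was at 2.52 ± 0.28 CPM in control and fell to 1.29 ± 0.03 CPM in mutant. This is -0.95 on the log2 scale (edgeR adjusted p = 0.0249), on 19 to 45 reads a library. Its call was lost in each fit that left out 1 library, with the DESeq2 Wald test and with the block. The exons of grim share 31.8% of their sequence with lncRNA:CR45975 on the same strand and 44.1% with asRNA:CR45974 on the opposite strand. With library size alone HtrA2, a mitochondrial protease that binds inhibitors of apoptosis, was called as well, also lower. The list had a median log2 fold change of -0.18 beside -0.01 over all tested genes. All 8 estimates were below 0, beside 5424 of 10526 over all tested genes. An unadjusted edgeR p under 0.05 was found for 4 of the 8 (rpr, grim, skl and HtrA2), beside 36.1%. The same 4 had all mutant values under all control values, beside 20%. Diap1, the inhibitor that binds Dronc and Drice, was at 347 ± 22.3 CPM in control and 336 ± 13.9 CPM in mutant (edgeR adjusted p = 0.695). Per kilobase, Diap1 stood at 5.09 ± 0.77 times Drice in control and 4.96 ± 0.28 times in mutant (SD, n = 3 each).

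Of the 4 genes of the Bcl-2 family and cytochrome c, 1 was higher in the mutant line and the list had a median log2 fold change of 0.13. This was Cyt-c-p, the main cytochrome c of the respiratory chain, which rose from 320 ± 3.51 to 377 ± 9.22 CPM (SD, n = 3 each), or 0.23 on the log2 scale (edgeR adjusted p = 0.0186). The Bcl-2 family genes Debcl and Buffy had log2 fold changes of 0.16 and 0.09 with edgeR adjusted p of 0.327 and 0.760. Of the 10 adaptors, ubiquitin-system genes and transcription factors, only foxo, the transcription factor of insulin signalling, passed. It rose from 130 ± 3.52 to 153 ± 3.45 CPM, or 0.24 on the log2 scale (edgeR adjusted p = 0.0210). The calls of Cyt-c-p and foxo were each lost in 5 of the 6 fits that left out 1 library. In the same list ck, a myosin known in the fly as an adaptor that links Dronc to Shaggy, was at 179 ± 11.1 CPM in control and 156 ± 4.36 CPM in mutant, a log2 fold change of -0.20 (edgeR adjusted p = 0.0616). Like Cul3, Tango7 and 20% of all tested genes, ck had all 3 mutant values under all 3 control values. It was called as lower with library size alone, where Cul3 and Tango7 were too (4 genes in all), and with upper-quartile scaling, where Cul3 was too (3 in all).

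Of the 12 genes listed around Dredd in the IMD pathway 1 had an unadjusted edgeR p under 0.05, beside 36.1% of all tested genes. None passed the edgeR threshold after adjustment, and the median log2 fold change was -0.04. By DESeq2 and limma-voom the list also gave 0 calls. With library size alone or upper-quartile scaling 1 gene, casp, an inhibitor of the pathway, was called as lower, and without control collection 1 only PGRP-LE, a pathway receptor, was called, as higher. Of the 8 genes for clearing dying cells, 2 were lower. NimC4, a receptor of glia and macrophages for dying cells, was at 74.2 ± 14.9 CPM in control and fell to 42.0 ± 3.94 CPM in mutant (SD, n = 3 each), or -0.82 on the log2 scale (edgeR adjusted p = 0.00527). Ced-12, an engulfment regulator, was at 48.1 ± 2.21 CPM in control and fell to 39.6 ± 3.56 CPM in mutant, or -0.28 on the log2 scale (edgeR adjusted p = 0.0460), and its call was lost in 5 of the 6 fits that left out 1 library, with the DESeq2 Wald test and with the block. The lists share imd, Fadd and Diap2, and together with the caspases they are read only as counts beside the 22.3% of all tested genes.

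**Figure D4:**
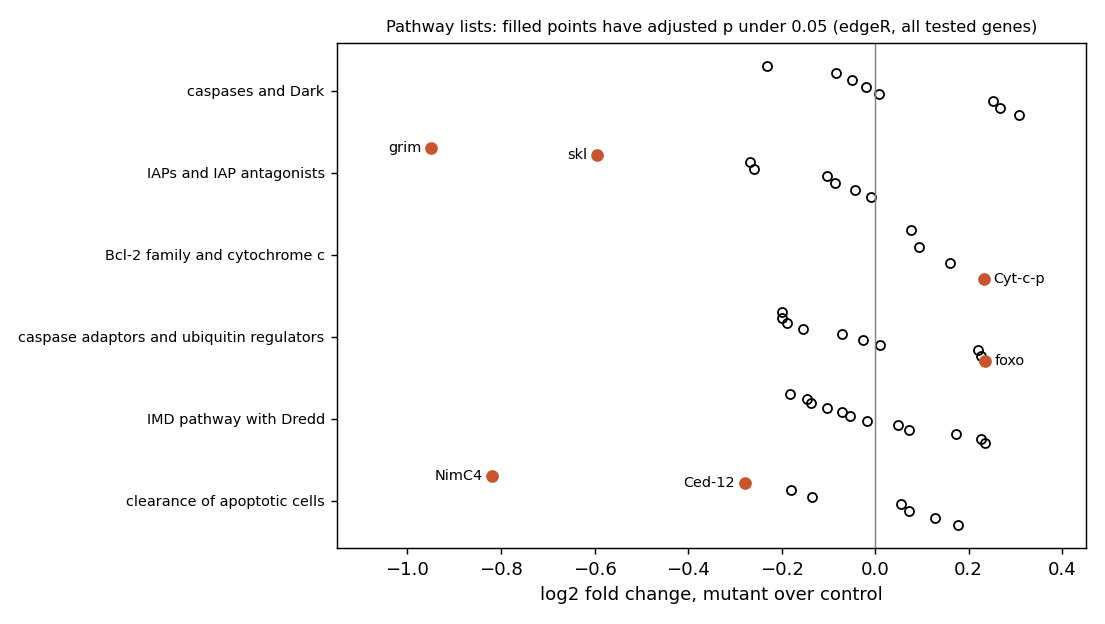
Log2 fold change of the mutant over the control line for each tested gene of 6 lists, where each point is a gene and filled points passed an edgeR adjusted p of 0.05 over all tested genes. No caspase gene passed, and skl, grim, NimC4 and Ced-12 lie below 0 while Cyt-c-p and foxo lie above it.

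Some cell type markers differed between the lines. The counts that follow stand beside 13.7% higher and 8.67% lower over all tested genes. Of 5 muscle markers 4 (Mhc, Act57B, Tm2 and Mlc2) were higher in the mutant line. The summed level of the 5 was 18852 to 20306 CPM in control and 23203 to 23812 CPM in mutant libraries. The remaining marker, Mef2, was not called, at 191 ± 13.4 CPM in control and 187 ± 11.7 CPM in mutant (SD, n = 3 each, edgeR adjusted p = 0.836). Of 6 neuron markers 2 were higher (nSyb and Syt1) and 1 was lower (elav), with sums of 1034 to 1075 and 1105 to 1132 CPM. Of 7 macrophage markers, which share Pxn and crq with the list for clearing dying cells, 6 were tested and 1, Sr-CI, was higher. Among the 6, 4 had an unadjusted edgeR p under 0.05, beside 36.1% of all tested genes. For 4 all mutant values were above all control values, beside 21.9% of all tested genes. The macrophage list had 5 of 6 estimates above 0 and a median log2 fold change of 0.30. Its sums were 299 to 338 and 314 to 346 CPM, and its most abundant gene, Pxn, had an estimate below 0, at 203 ± 18.4 CPM in control and 179 ± 10.6 CPM in mutant (SD, n = 3 each, edgeR adjusted p = 0.150). None of 4 glia markers passed in edgeR's test (1 at an unadjusted p under 0.05), with sums of 508 to 586 and 554 to 593 CPM. By the same test Yp2 was higher among the eggshell and yolk protein genes, from at most 2 reads in a control library to at most 14 in a mutant library. The part of these differences in the values of the caspase genes was not tested.

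For each of the 8 genes the 2 other tested genes with the most similar profile were named by the highest Pearson's r of log2 CPM over the 6 libraries, among 10518 genes. The closest were mey (r = 0.995) and MCTS1 (r = 0.992) for Dark, and mRpL34 (r = 0.995) and ninaB (r = 0.987) for Decay. For Dronc they were sti and mal (both r = 0.972), and for Drice Mybbp1A (r = 0.986) and Trf (r = 0.979). Dcp-1 was closest to CG11788 (r = 0.990) and Mst36Fa (r = 0.983), Dredd to POLDIP2 (r = 0.986) and myo (r = 0.985), Damm to tsl (r = 0.987) and sxc (r = 0.986), and Strica to ND-30 (r = 0.988) and MFS16 (r = 0.981). An r above 0.95 was reached by 106 genes for Dark and 44 for Decay, but by 4 for Drice and 11 for Dronc. The values describe 6 points that share libraries, and with so many genes compared high values of r arise easily.

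**Figure D5:**
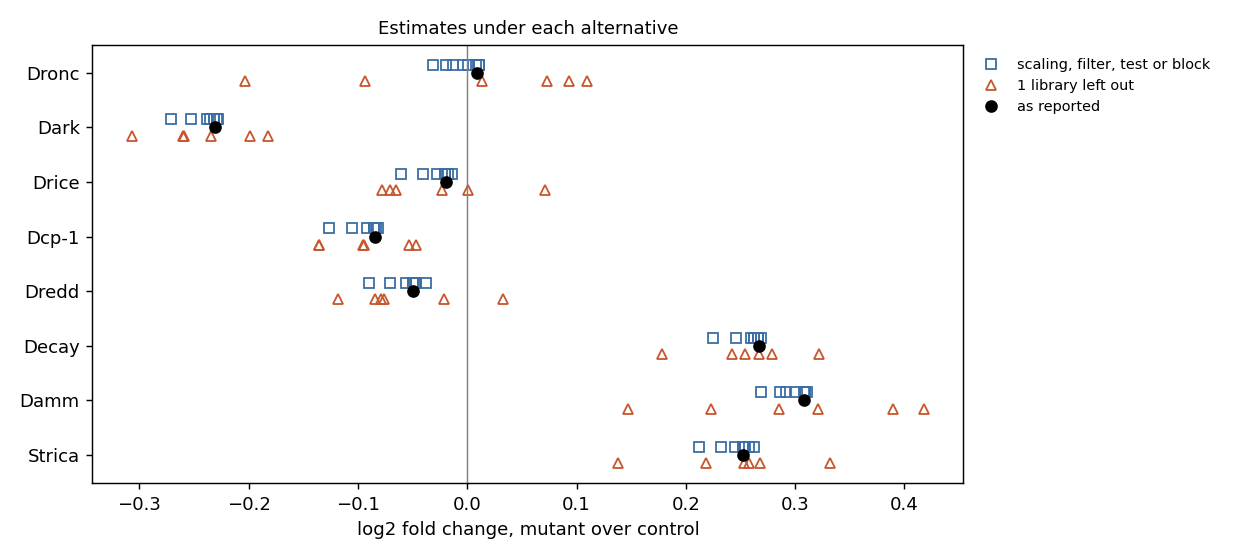
Log2 fold change of the mutant over the control line for the 8 genes as reported (black), under other scalings, filters and tests or the replicate number as a block (squares), and with 1 library left out (triangles). Decay, Damm and Strica stay above 0, Dark and Dcp-1 stay below 0, and Dronc, Drice and Dredd lie on both sides.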

How the data were processed

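Per the labels, poly(A) RNA from 100 ng of total RNA per collection was made into directional libraries with 12 cycles of PCR and sequenced from a single end. For each gene the authors deposited the number of reads as raw counts, and also a table of 10526 genes with the same counts and log2 CPM per library, made by limma-voom per its name. That table also has the authors' log2 fold change (control over mutant), p-value and adjusted p-value, and their moderated statistic and log-odds score, which were not used. Per the submitters' processing notes, the tools were TopHat2 2.1.1, Bowtie2 2.3.4.0, edgeR 3.14.0 and limma 3.28.21. The genome build, the annotation and the counting tool are not given in the sources used here. Counts in both tables were checked to be equal, and 0 columns were left unmatched.

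Genes were filtered with filterByExpr (minimum count 10, total 15) and scaled with edgeR's TMM factors, and the lines were compared with edgeR 4.0.16 (glmQLFit and glmQLFTest, R 4.3.3, two-sided, Benjamini-Hochberg over all tested genes, threshold 0.05). Standard errors are the log2 fold change over the square root of F. The 14 alternatives were limma 3.58.1, DESeq2 1.42.0, edgeR with no filter or with at least 1 CPM in 3 libraries, edgeR scaled by library size alone, by upper quartiles or by the size factors of DESeq2, the replicate number as a block, and each of 6 libraries left out. The code was tested on simulated data. Positions and exon lengths are from Ensembl release 115, BDGP6. The labels do not pair equally numbered collections. Named were the 8 genes, up to 4 genes past the threshold per pathway list and 2 genes of similar profile for each of the 8. Other regulators and the markers given by name came from the lists but were singled out after their values were seen. Members and lists were chosen with earlier results of these data known. Floors and intervals from counts cover counting error only, as reads had no molecular identifiers. No pair of libraries agreed within sampling noise (lowest chi-square per degree of freedom 8.31).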

Additional observations from a re-analysis of the deposited data

How the results depend on the processing

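No alternative at the 0.05 threshold called any of the 8 genes, and in the reported fit a threshold of 0.1 called 1 of them, Decay. With library size alone Dark was also under 0.1 (adjusted p 0.0880). The sign of Dark, Dcp-1, Decay, Damm and Strica held in all 14 alternatives each. Dronc turned negative with library size alone (-0.031), upper-quartile scaling (-0.013), limma-voom (-0.020) and the replicate number as a block (-0.0040), and ran from -0.20 to 0.11 with 1 library left out. Drice then ran from -0.078 to 0.071 and Dredd from -0.12 to 0.032. The median of all genes was -0.05 with library size alone. Over all tested genes 2350 were called (61.1% of them higher), 2540 with library size alone (49.9% higher), 2347 with DESeq2's size factors, 2283 with no filter (of 15027 genes), 2337 at 1 CPM or more in 3 libraries, 919 at a threshold of 0.01, 1994 with the block, and 1295 to 2146 with 1 library left out. Equally numbered collections did not deviate together (correlations from -0.019 to 0.010, beside -0.10 to 0.13 for differently numbered ones). With 3 collections per line this cannot decide whether equally numbered ones were handled together. The inhibitor list gave 1 call under DESeq2, the block and a threshold of 0.01, 4 at 0.1, and 1 to 2 with 1 library left out. The 2 without control collection 3 were skl and HtrA2. The Bcl-2 and cytochrome c list gave 0 at 0.01 and 0 to 1 with 1 left out. The adaptor list gave 4 with library size alone, 3 with upper-quartile scaling, 2 with limma-voom, 0 at 0.01, 3 at 0.1 and 0 to 1 with 1 left out. The IMD list gave 1 with library size alone, upper-quartile scaling and a threshold of 0.1, and 0 to 1 with 1 left out. The clearance list gave 1 under DESeq2, the block and 0.01, and 1 to 2 with 1 left out. The 2 without control collection 1 were NimC4 and Pxn, both lower, and not Ced-12. With the exon length free of other genes, levels per kilobase moved to 7.51 for Dark, 23.7 for Dcp-1, 2.19 for Damm and 3.87 for Strica. These levels moved because the length they are divided by was shorter. The cause of the other shifts was not tested.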
